A study of Mus musculus with 4 samples.

Results

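The mitochondrial carrier family (*Slc25a* genes) and the uncoupling proteins (*Ucp1*, *Ucp2* and *Ucp3*) were chosen by symbol, as every row whose name is *Slc25a* followed by a number or is one of the *Ucp* genes. The choice gave 48 genes of the 19030 in the table, spread over 19 chromosomes. It used no measured value, but was made with earlier results of these data known. Of the 48 genes, 41 had a mean of at least 1 FPKM over the 4 libraries and were tested, and 7 were below it. The members nearest this minimum were *Slc25a47*, with a mean of 1.08 FPKM, and *Slc25a27*, with 0.855 FPKM.

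RNA was sequenced from the inguinal fat pad of the mouse (ingWAT), a subcutaneous white depot, in 2 Ctrl and 2 cKO libraries. Both groups carried *Oct3* alleles with loxP sites flanking exon 2. The cKO mice also carried an Adiponectin-Cre transgene, which acts in adipocytes and so leaves the gene intact in the other cells of the depot. *Oct3* is the gene *Slc22a3*, an organic cation transporter that takes up noradrenaline. The mice were on a C57BL/6 background, and the labels give an age of 3 months and housing at 4°C for all 4 libraries, so no library from warm-housed mice enters the comparison. How many mice each library holds is not stated in the sources used here. The p-values rest on the spread between these libraries, which limma moderates across genes of similar level. Values are FPKM, read counts divided by transcript length and by the size of the library, so levels can be set side by side between genes.

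Most members of the mitochondrial carrier family are proteins of the inner mitochondrial membrane that exchange metabolites, nucleotides, phosphate and coenzymes between the cytosol and the matrix. The uncoupling proteins belong to the same family. UCP1 lets protons return to the matrix without making ATP. This leak is a major source of heat in brown fat and in the beige adipocytes that appear in subcutaneous fat in the cold. Other carriers feed that oxidation, export citrate for fatty acid synthesis, or exchange ADP for ATP.

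The floxed gene was lower in the cKO libraries. *Slc22a3* was at 16.95 and 17.68 FPKM in Ctrl and at 9.07 and 9.50 FPKM in cKO, a log2 fold change of -0.83 (SE 0.066, adjusted p = 0.000439, limma with Benjamini-Hochberg adjustment over the 12658 genes tested). The estimated depth was 17400000 to 18150000 reads a library. The libraries also differed in markers of cell types. The summed FPKM of 13 skeletal muscle markers was 2480 and 1667 in Ctrl against 10.9 and 8.62 in cKO, and all 11 of those tested were lower in cKO. Of the other cell markers, 6 of 7 B and T cell genes were higher, with sums of 184 and 209 FPKM in Ctrl and 285 and 338 FPKM in cKO, 4 of 5 fibroblast progenitor genes were lower, and 2 of 4 endothelial genes were lower (*Cdh5* and *Tek*). Of 8 adipocyte genes 2 were lower (*Adipoq* and *Lep*), and the other 6 did not pass the test. Of 8 brown and beige adipocyte genes 7 were higher, with sums of 1208 and 1377 FPKM in Ctrl and 3182 and 2672 FPKM in cKO. Among all genes tested, 12.0% were higher and 13.8% lower in cKO at an adjusted p under 0.05. The part of any of these marker differences in the values of the carriers was not tested.

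Of the 41 tested members, 12 were differentially expressed at an adjusted p under 0.05, 11 higher and 1 lower in cKO. That is 29.3% of the members, beside 25.8% of all genes tested. The directions were less even than among all genes. Higher calls made up 26.8% of the members against 12.0% of all genes, and lower calls 2.44% against 13.8%. In 27 members the genotypes did not overlap, with 18 above Ctrl and 9 below in both cKO libraries, and 66.5% of all genes tested had no overlap either (31.9% above and 34.6% below). The median log2 fold change of the members was 0.05, and 0.05 without *Ucp1*, beside -0.01 for all genes. The changes were mostly small. On log2(FPKM + 1), 2 members, *Ucp1* and *Slc25a34*, moved by 1 or more, *Slc25a10* fell by 0.997, and 6 of the 12 called members moved by under 0.5. Because log2(FPKM + 1) was tested, the fold changes of low genes such as *Slc25a34* and *Slc25a48* are understated. Without Ctrl replicate 1 the calls fell to 7 and without Ctrl replicate 2 to 8, when 6.22% and 11.7% of all genes were called.

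**Figure D1:**
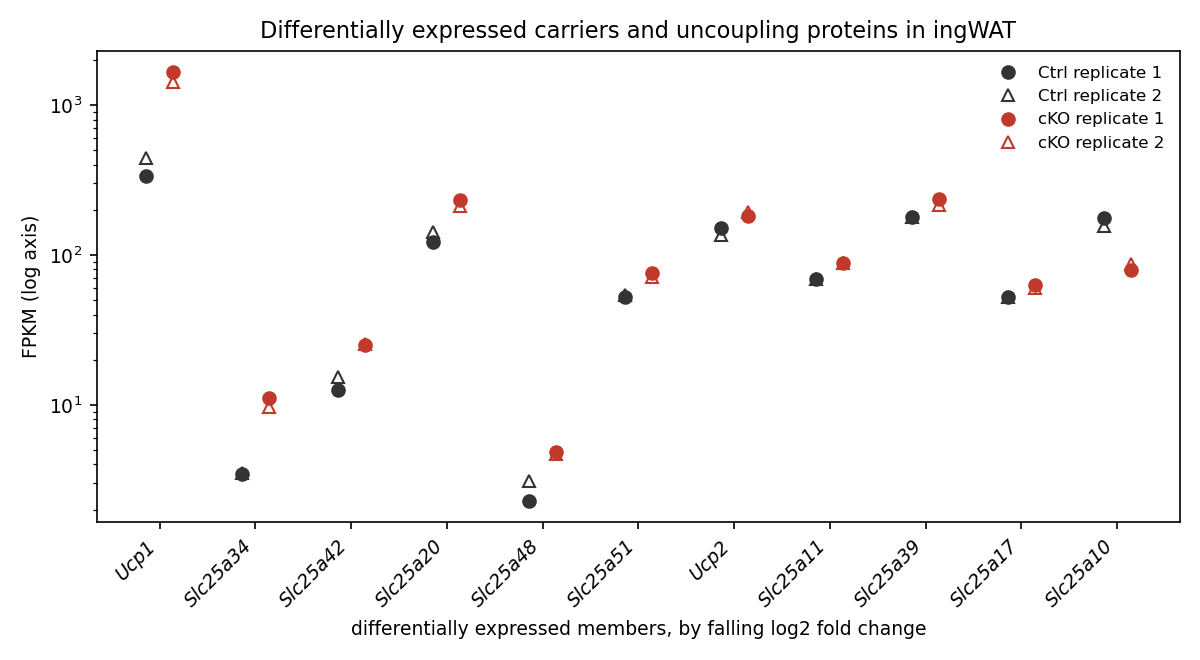
FPKM of 11 of the 12 differentially expressed members in each of the 4 libraries, on a log axis, ordered by log2 fold change (filled circles, replicate 1, open triangles, replicate 2, Ctrl dark and cKO red). In none of these 11 genes do the groups overlap, and *Slc25a10* is the one gene with both cKO libraries below Ctrl.

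Promoter sequence was looked up for the members with the largest changes, to show what lies at the start of these genes. Each run covers 250 bases before to 50 bases after the annotated start (RefSeq, GRCm38.p6), read 5′ to 3′ on the strand of the gene. Capitals mark the half-site of the cAMP response element (TGACG), which takes its name from the response to cAMP, the messenger of noradrenaline in fat cells, and the half-site of nuclear receptors (AGGTCA), each searched on both strands. The genes with the largest rises were *Ucp1*, with its promoter at chr8:83290098-83290397 on the plus strand, and *Slc25a34*, at chr4:141623785-141624084 on the minus strand, and the gene that fell was *Slc25a10*, at chr11:120491587-120491886 on the plus strand.
Ucp1: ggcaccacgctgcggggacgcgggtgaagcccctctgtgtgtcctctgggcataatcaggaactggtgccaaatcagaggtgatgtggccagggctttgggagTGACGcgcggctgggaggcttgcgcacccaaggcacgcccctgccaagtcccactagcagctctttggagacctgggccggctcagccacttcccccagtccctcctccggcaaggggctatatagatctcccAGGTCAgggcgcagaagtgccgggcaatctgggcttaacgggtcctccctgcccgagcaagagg
Slc25a34: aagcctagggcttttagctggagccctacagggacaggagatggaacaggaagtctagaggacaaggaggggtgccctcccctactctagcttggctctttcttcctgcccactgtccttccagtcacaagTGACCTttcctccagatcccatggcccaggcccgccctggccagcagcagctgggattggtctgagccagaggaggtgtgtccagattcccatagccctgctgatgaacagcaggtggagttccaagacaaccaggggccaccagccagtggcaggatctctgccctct
Slc25a10: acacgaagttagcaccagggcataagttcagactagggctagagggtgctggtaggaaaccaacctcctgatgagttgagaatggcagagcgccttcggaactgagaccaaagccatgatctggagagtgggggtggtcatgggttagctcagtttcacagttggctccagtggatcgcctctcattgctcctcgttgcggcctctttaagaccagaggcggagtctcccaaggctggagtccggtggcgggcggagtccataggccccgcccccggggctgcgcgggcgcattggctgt
The *Ucp1* promoter held TGACG from 147 bases and AGGTCA from 14 bases before the start. The *Slc25a34* promoter held the nuclear receptor half-site on the other strand, where it reads TGACCT, from 119 bases before the start. The *Slc25a10* promoter held neither, and the same was true of *Slc25a42* and *Slc25a20*, the next largest rises. Promoters were found for 38 members. TGACG was in 15 of them (39.47%) and in 23.05% of all 27025 genes with a promoter, and AGGTCA was in 6 (15.79%) against 18.13%. The full palindrome TGACGTCA, which contains TGACG, was in 2 members, *Slc25a25* and *Slc25a36*, neither of them differentially expressed (2.03% of all genes). The longer element TCAAGGTCA, which contains AGGTCA, was in 0 members (0.47% of all genes). TATAAA was in 2 members, *Slc25a18* and *Slc25a21*, both below 1 FPKM (15.67% of all genes). Of the 9 genes higher in cKO that had a promoter, 3 held TGACG and 3 held AGGTCA. These are matches of letters in a short window, and distal enhancers were not searched.

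Among the uncoupling proteins and their closest relatives, *Ucp1* and *Ucp2* rose in cKO and 3 of the 5 tested members did not pass the test. *Ucp1* (gene ID 22227) was at 334.8 and 446.36 FPKM in the Ctrl libraries and at 1657.92 and 1420.2 FPKM in the cKO libraries. Both cKO libraries were above both Ctrl libraries, and the ratio of the mean FPKM was 3.94. The log2 fold change was 1.99 (SE 0.142, adjusted p = 0.000337). In a bulk sample, more cells that express a gene and more of its RNA in each cell cannot be told apart, and the same holds for fewer cells and less RNA. The 7 brown and beige adipocyte markers that rose with *Ucp1* were *Cidea*, *Dio2*, *Ppargc1a*, *Elovl3*, *Cox8b*, *Cox7a1* and *Otop1*. *Cox8b* and *Cox7a1* also count among the respiratory subunits described further on.

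*Ucp2*, which is expressed in many tissues and strongly in immune cells, was at 150.2 and 136.76 FPKM in Ctrl and at 183.29 and 193.28 FPKM in cKO. The groups did not overlap, with a log2 fold change of 0.39 (SE 0.068, adjusted p = 0.00672). Without Ctrl replicate 2 it did not pass (adjusted p = 0.0677). The B and T cell markers and the brown and beige adipocyte markers that were higher in cKO stand beside this rise. Of 7 macrophage markers 1 was higher and 3 were lower. The part of any of these cells in the values of *Ucp2* was not tested. *Ucp3*, best known from skeletal muscle and brown fat, was at 35.19 and 33.08 FPKM in Ctrl and at 33.75 and 33.19 FPKM in cKO. These groups overlapped, and the 95% interval of the log2 fold change ran from -0.17 to 0.11. The interval leaves out a change of the size of that of *Ucp2*, although both genes lie 6.9 kb apart on chromosome 7. The muscle markers, which were far lower in cKO, stand beside this value, and their part in it was not tested.

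*Ucp1* was 2.23 and 3.26 times the level of *Ucp2* in the Ctrl libraries and 9.05 and 7.35 times in the cKO libraries, on FPKM. The relatives *Slc25a14* (1.97 to 2.97 FPKM) and *Slc25a30* (4.15 to 5.71 FPKM) did not pass the test. For *Slc25a30* both cKO libraries were below both Ctrl libraries, at 4.47 and 4.15 against 4.69 and 5.71 FPKM (log2 fold change -0.22, adjusted p = 0.168). *Slc25a27*, at 0.54 to 1 FPKM, was not tested.

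**Figure D2:**
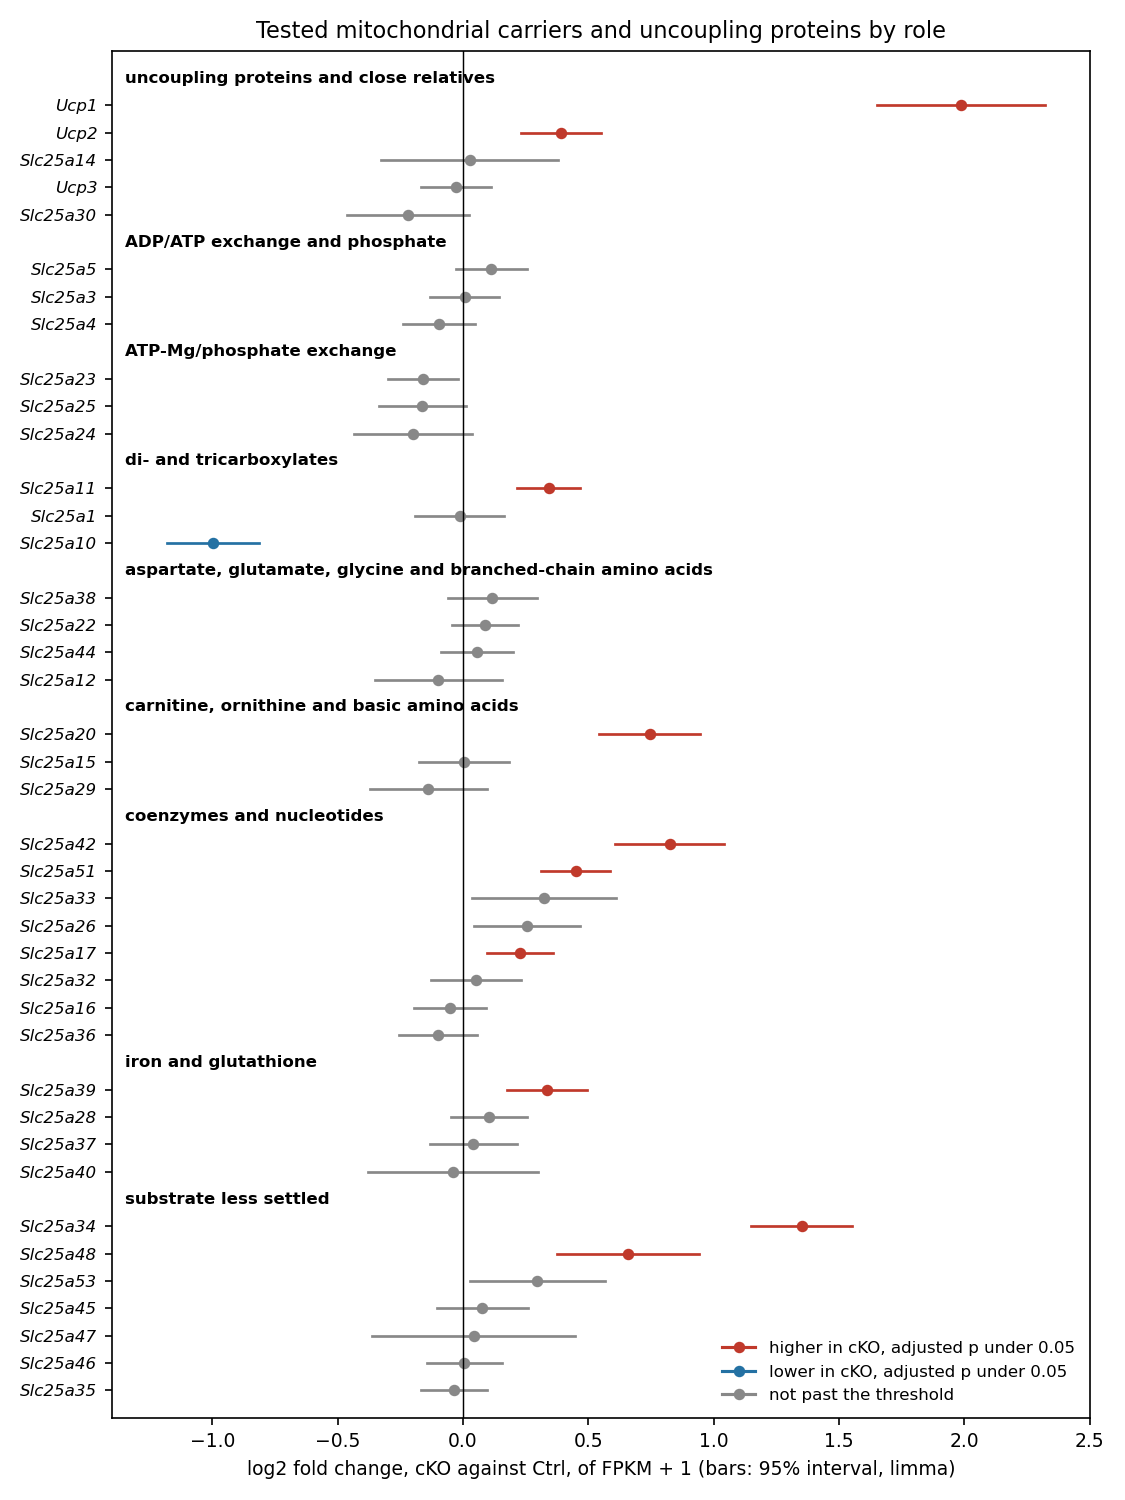
Log2 fold change of cKO against Ctrl on FPKM + 1, with the 95% interval from limma, for 40 of the 41 tested members grouped by role (red, higher, blue, lower, grey, not past the threshold). The intervals of *Ucp1*, *Slc25a34* and *Slc25a10* lie farthest from 0. No called gene is in the groups for ADP/ATP and phosphate, for ATP-Mg/phosphate, or for aspartate, glutamate, glycine and branched-chain amino acids.

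The carriers that serve ATP synthesis differed little between the genotypes. *Slc25a4* and *Slc25a5* encode the ADP/ATP carriers, which bring ADP into the matrix and let ATP out, and *Slc25a3* encodes the phosphate carrier. *Slc25a5* was at 365.83 and 374.3 FPKM in Ctrl and 398.56 and 401.88 FPKM in cKO, with both cKO libraries above Ctrl but an adjusted p of 0.215 (log2 fold change 0.11, 95% interval -0.03 to 0.26). *Slc25a4*, the paralog that predominates in muscle, was at 291.23 and 284.73 FPKM in Ctrl and 276.17 and 262.84 FPKM in cKO (log2 fold change -0.10, 95% interval -0.24 to 0.05, adjusted p = 0.291). The paralogs lay on opposite sides of 0, and neither passed the test. Under quantile normalization *Slc25a4* was called lower (adjusted p = 0.0295) and the log2 fold change of *Slc25a5* was -0.04. The muscle marker sums of 2480 FPKM in Ctrl replicate 1 and 1667 FPKM in Ctrl replicate 2 stand beside these values, and their part was not tested. Summed over both paralogs, the FPKM was 657 and 659 in Ctrl and 675 and 665 in cKO. *Slc25a3* was at 316.02 and 316.28 FPKM in Ctrl and at 315.41 and 319.57 FPKM in cKO (log2 fold change 0.01, 95% interval -0.13 to 0.14). *Slc25a31*, the ADP/ATP carrier of the germ line, was at most 0.03 FPKM.

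The calcium-regulated ATP-Mg/phosphate carriers, which set the adenine nucleotide content of the matrix, had all 3 tested members with both cKO libraries below both Ctrl libraries, as had 34.6% of all genes tested, and none was differentially expressed. *Slc25a23* was at 60.25 and 57.5 FPKM in Ctrl and 53.84 and 51.33 FPKM in cKO (log2 fold change -0.16, adjusted p = 0.088). *Slc25a25* was at 13.05 and 12.54 FPKM in Ctrl and 10.77 and 11.91 FPKM in cKO. *Slc25a24* was at 5.88 and 5.05 FPKM in Ctrl and 4.35 and 4.9 FPKM in cKO.

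The carriers of di- and tricarboxylates went different ways. *Slc25a10* (gene ID 27376), the dicarboxylate carrier, which exchanges malate and succinate for phosphate and is abundant in white fat, was at 177 and 156.38 FPKM in Ctrl and at 79.5 and 86.4 FPKM in cKO. Both cKO libraries were below both Ctrl libraries, and the Ctrl mean was 2.01 times the cKO mean. The log2 fold change was -0.997 (SE 0.0778, adjusted p = 0.000414). It was the only member called lower in cKO, apart from *Slc25a4* under quantile normalization. *Slc25a11*, the oxoglutarate carrier of the malate-aspartate shuttle, was at 68.74 and 69.54 FPKM in Ctrl and at 87.78 and 87.92 FPKM in cKO. It rose by a log2 fold change of 0.34 (SE 0.0528, adjusted p = 0.00428). Without Ctrl replicate 1 its adjusted p was 0.0601.

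*Slc25a1*, the citrate carrier, which supplies the cytosol with acetyl units for fatty acid synthesis, was the highest member in Ctrl. It was at 1036.86 and 1023.45 FPKM in Ctrl and at 1053.95 and 988.14 FPKM in cKO, and the groups overlapped (log2 fold change -0.01, 95% interval -0.19 to 0.16). The ratio of *Slc25a1* to *Slc25a10* was 5.86 and 6.54 in Ctrl and 13.3 and 11.4 in cKO. The ratio of *Slc25a10* to *Slc25a11* was 2.57 and 2.25 in Ctrl and 0.906 and 0.983 in cKO, so that *Slc25a11* was the more abundant of the pair in both cKO libraries. The fourth carrier of the group, *Slc25a21*, was at 0.20 FPKM or less.

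**Figure D3:**
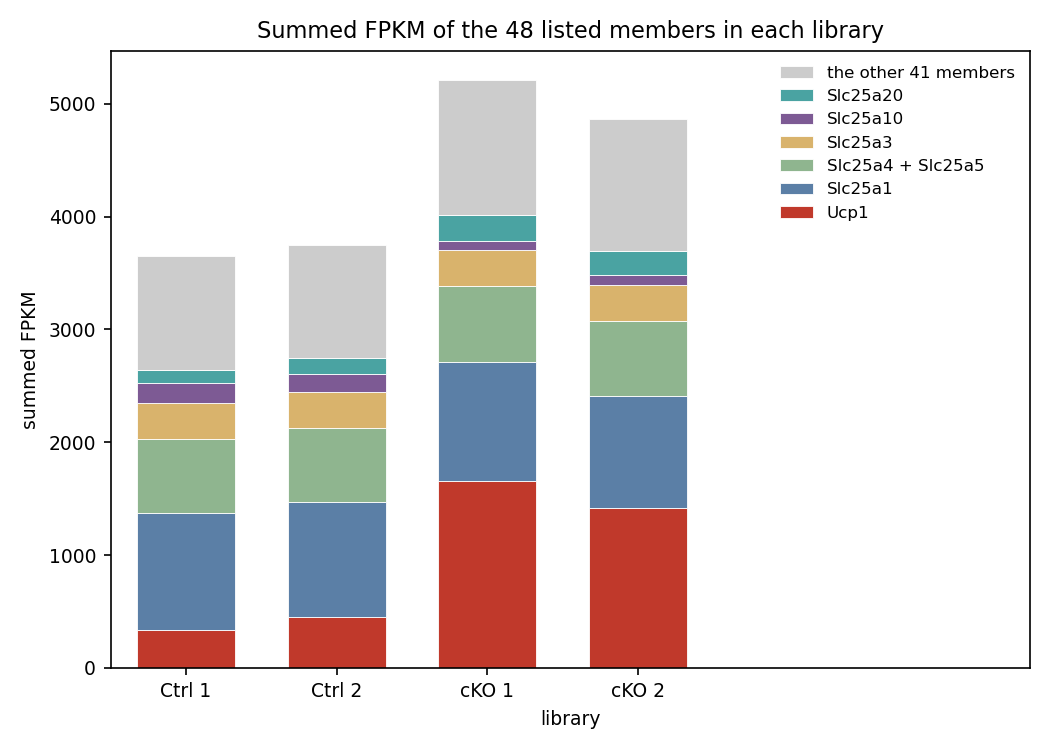
Summed FPKM of the 48 listed members in each library, stacked by gene. The total is 3655 and 3745 FPKM in Ctrl and 5210 and 4862 FPKM in cKO, *Ucp1* (red) accounts for most of the difference, and the *Slc25a10* band is thinner in cKO.

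Summed over all 48 members, the FPKM was 3655 and 3745 in Ctrl and 5210 and 4862 in cKO. Without *Ucp1* it was 3321 and 3298 in Ctrl and 3552 and 3442 in cKO. *Ucp1* thus made up 9.16% and 11.9% of the summed FPKM in Ctrl and 31.8% and 29.2% in cKO. By mean FPKM *Slc25a1* stood first and *Ucp1* second in Ctrl, and the order was the opposite in cKO. The share of *Slc25a10* was 4.84% and 4.18% in Ctrl and 1.53% and 1.78% in cKO.

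Carriers of amino acids held no differentially expressed gene among the 4 tested that carry aspartate, glutamate, glycine or branched-chain amino acids. *Slc25a12*, an aspartate/glutamate carrier of the malate-aspartate shuttle, was at 7.04 and 6.52 FPKM in Ctrl and at 5.58 and 7.02 FPKM in cKO, and its paralog *Slc25a13* was at 0.70 FPKM or less. *Slc25a22*, a glutamate carrier, was at 53.22 and 51.33 FPKM in Ctrl and at 54.61 and 56.64 FPKM in cKO (log2 fold change 0.09, adjusted p = 0.295). *Slc25a44*, which carries branched-chain amino acids into the mitochondria of brown fat, was at 39.29 and 39.69 FPKM in Ctrl and at 42.59 and 39.61 FPKM in cKO, and *Slc25a38*, the glycine carrier needed for haem, was at 11.22 to 13.33 FPKM. *Slc25a18*, the other glutamate carrier, was at 0.20 FPKM or less.

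*Slc25a20*, the carnitine-acylcarnitine carrier that brings long-chain fatty acids into the matrix for oxidation, rose in cKO. It was at 122.57 and 142.12 FPKM in Ctrl and at 232.12 and 212.2 FPKM in cKO. The groups did not overlap, and the ratio of the means was 1.68 (log2 fold change 0.75, SE 0.0855, adjusted p = 0.00143). The carnitine palmitoyltransferases, which act on either side of this carrier, moved as follows. *Cpt1b* had a log2 fold change of 1.42 and *Cpt2* one of 0.55, both called higher, while *Cpt1a* was not called (0.01). The carriers of ornithine and basic amino acids, *Slc25a15* (5.36 to 5.47 FPKM) and *Slc25a29* (2.77 to 3.45 FPKM), did not pass the test, and *Slc25a2* was at 0.18 FPKM or less.

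Carriers of coenzymes and nucleotides had 4 of 9 tested members higher in cKO (44.4%) and 0 lower. Among all genes tested, 12.0% were higher and 13.8% lower. *Slc25a42*, which brings coenzyme A into the matrix, was at 12.5 and 15.26 FPKM in Ctrl and at 25.11 and 25.37 FPKM in cKO (log2 fold change 0.82, SE 0.0922, adjusted p = 0.00133). *Slc25a51*, which carries NAD, was at 52.72 and 54.43 FPKM in Ctrl and at 75.71 and 71.35 FPKM in cKO (log2 fold change 0.45, SE 0.0585, adjusted p = 0.00223). In both genes the groups lay apart by more than the libraries of either group differed. *Slc25a17*, a carrier of coenzymes into peroxisomes, was at 52.01 and 52.38 FPKM in Ctrl and at 62.61 and 59.84 FPKM in cKO (log2 fold change 0.23, adjusted p = 0.0245). This call was less firm, and *Slc25a17* passed in 6 of 11 alternative fits, with an adjusted p of up to 0.144.

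The pyrimidine nucleotide carriers *Slc25a33* and *Slc25a36* are paralogs, and neither passed the test. *Slc25a33* was at 8.69 and 11.29 FPKM in Ctrl and at 11.81 and 13.54 FPKM in cKO (log2 fold change 0.32, adjusted p = 0.0957). With the replicate number as a block it was called higher (adjusted p = 0.0171). *Slc25a36* was at 11.54 and 12.07 FPKM in Ctrl and at 10.83 and 11.07 FPKM in cKO. *Slc25a26*, the carrier of S-adenosylmethionine, was at 8.85 and 10.45 FPKM in Ctrl and at 12.06 and 11.29 FPKM in cKO (log2 fold change 0.25, adjusted p = 0.0788). *Slc25a16* (18.11 to 19.41 FPKM) and *Slc25a32* (8.44 to 9.35 FPKM) were not differentially expressed.

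Among the carriers of iron and glutathione, *Slc25a39*, which brings glutathione into mitochondria, was at 179.88 and 177.88 FPKM in Ctrl and at 237.39 and 215.01 FPKM in cKO. It rose by a log2 fold change of 0.34 (SE 0.067, adjusted p = 0.0111), and without either Ctrl library, or with no filter on low values, it did not pass (adjusted p of 0.0572 to 0.107). Its paralog *Slc25a40* was far lower, at 2.66 and 3.3 FPKM in Ctrl and at 2.42 and 3.35 FPKM in cKO, and its groups overlapped. The mitoferrins, which import iron, did not pass the test. *Slc25a28* was at 26.61 and 25.72 FPKM in Ctrl and at 29.3 and 27.08 FPKM in cKO, and *Slc25a37*, the erythroid paralog, at 8.37 and 8.47 FPKM in Ctrl and at 8.34 and 9.05 FPKM in cKO. Of 5 erythroid markers tested, 2 were called lower in cKO. All 5 had both cKO libraries below both Ctrl libraries, as had 34.6% of all genes tested.

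Of the 7 tested carriers whose substrate is less settled, *Slc25a34* and *Slc25a48* rose (28.6%), beside 12.0% of all genes tested. *Slc25a34* (gene ID 384071) was at 3.43 and 3.48 FPKM in Ctrl and at 11.03 and 9.74 FPKM in cKO. The ratio of the means was 3.01, second to that of *Ucp1* among the called members (log2 fold change 1.35, SE 0.0854, adjusted p = 0.000217). At the estimated depth its values stand for about 164 and 163 reads in the Ctrl libraries and 506 and 450 reads in the cKO libraries. *Slc25a35*, its close paralog, was at 53.46 and 51.21 FPKM in Ctrl and at 51.57 and 50.41 FPKM in cKO (log2 fold change -0.04, 95% interval -0.17 to 0.10). *Slc25a48*, a carrier linked to choline, was at 2.29 and 3.09 FPKM in Ctrl and at 4.87 and 4.7 FPKM in cKO (log2 fold change 0.66, SE 0.12, adjusted p = 0.00794), and did not pass without Ctrl replicate 1 (adjusted p = 0.075), without cKO replicate 1 (adjusted p = 0.0516) or with no filter (adjusted p = 0.0651). *Slc25a45* (7.03 to 7.98 FPKM), *Slc25a46* (20.32 to 21.86 FPKM), *Slc25a47* (0.79 to 1.46 FPKM) and *Slc25a53* (1.11 to 1.71 FPKM) did not pass, and *Slc25a43* was at 0.41 FPKM or less. Without the variance trend *Slc25a53* was called higher (log2 fold change 0.30, adjusted p = 0.0393).

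The 29 members that did not pass had log2 fold changes from -0.22 to 0.32, and their 95% intervals ran from -0.46 to 0.61 at the widest ends. The median SE of the tested members was 0.075. For 4 of the 29, *Slc25a23*, *Slc25a26*, *Slc25a53* and *Slc25a33*, the unadjusted p was under 0.05. Of the 7 members below the minimum, *Slc25a27* and *Slc25a13* stood for 26.9 to 51.9 reads a library, and *Slc25a43*, *Slc25a21*, *Slc25a18*, *Slc25a2* and *Slc25a31* for 7.7 reads or fewer. With no filter on low values, limma called 0 of these 7, and 1 of them, *Slc25a43*, had an unadjusted p under 0.05 (adjusted p = 0.0892).

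The enzymes that work beside the carriers were described from a list of 16, of which 15 were tested. In cKO 8 were higher and 3 lower, and their log2 fold changes had a median of 0.24. The malate-aspartate shuttle pairs *Slc25a11* and *Slc25a12* with aspartate aminotransferases and malate dehydrogenases. *Got1* (1.12), *Got2* (0.45), *Mdh1* (0.24) and *Mdh2* (0.43) were all higher on the log2 scale. The enzymes of the glycerol phosphate shuttle, *Gpd1* (log2 fold change 0.88) and *Gpd2* (0.73), were higher too, as were citrate synthase, *Cs* (0.44), and carnitine acetyltransferase, *Crat* (0.39). Downstream of the citrate carrier, *Acly* (log2 fold change 0.08) and *Me1* (-0.09) did not pass, and *Idh1* fell by 0.24. *Ckb* fell by 0.31, and *Ckmt2*, the creatine kinase of muscle mitochondria, was at 5.18 and 2.98 FPKM in Ctrl and listed at 0 in both cKO libraries.

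Of 27 genes for other transport across the mitochondrial membranes, 26 were in the table by symbol. In cKO 8 of them rose (30.8%) and 3 fell (11.5%), beside 12.0% and 13.8% of all genes tested. Their median was 0.06 on the log2 scale. The pyruvate carrier subunits *Mpc1* (log2 fold change 0.34) and *Mpc2* (0.39), the outer membrane channels *Vdac1* (0.21) and *Vdac2* (0.21), the cation exchanger *Letm1* (0.68) and *Abcb8* (0.27) rose, with *Cpt1b* and *Cpt2* as above. The sideroflexins *Sfxn1* (-0.24), *Sfxn2* (-0.37) and *Sfxn4* (-0.45) fell. For the respiratory complexes and ATP synthase 81 subunits were tested, of which 65 rose (80.2%) and 5 fell (6.17%). Their median log2 fold change was 0.37. Of 77 mitochondrial ribosomal proteins 23 rose (29.9%) and 0 fell, with a median of 0.16. The medians of the carriers and of the other transport genes were thus below those of both these lists. No test of the difference between lists was made.

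**Figure D4:**
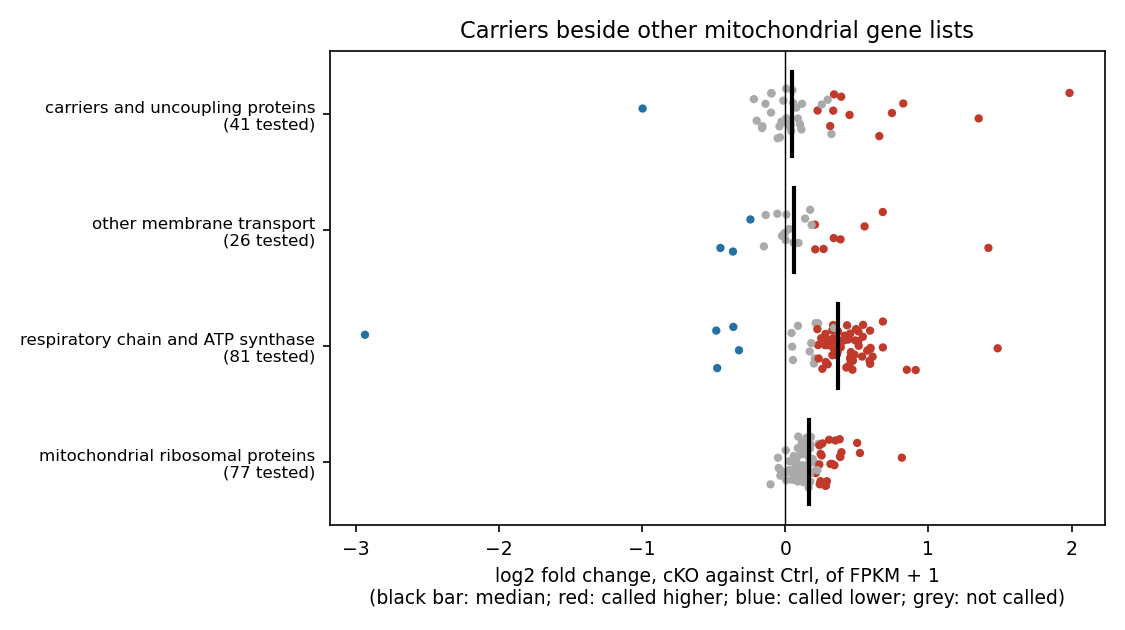
Log2 fold change of each tested gene of 4 mitochondrial lists (points, red, higher, blue, lower, grey, not past the threshold) with the median of each list as a black bar. The median is 0.05 for the carriers, 0.06 for other membrane transport, 0.37 for the respiratory chain and ATP synthase and 0.16 for mitochondrial ribosomal proteins, and the lowest point is *Cox6a2*, a subunit of muscle.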

How the data were processed

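RNA sequencing of cold-exposed ingWAT gave 2 Ctrl and 2 cKO libraries, named Control and Deficient in the table, which the titles of the samples match. Polyadenylated RNA was read by the authors on a BGISEQ-500, single-end with 50 bases, and FPKM was deposited for each gene. The submitters' processing notes name HISAT2 2.0.4, RSEM 1.2.12 and mm10. The notes do not give their roles. RSEM estimates how reads are shared between similar genes, so, if it made the FPKM, values of close paralogs and of genes with processed pseudogenes, such as *Slc25a5*, are less certain. Per-sample columns left unused numbered 0.

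Genes that averaged 1 FPKM or more were compared on the scale of log2(FPKM + 1), using limma 3.58.1 under R 4.3.3 (eBayes with a trend, two-sided), with Benjamini-Hochberg adjustment over 12658 genes and an adjusted p threshold of 0.05. The procedure was tested on simulated data. The depth was estimated from the FPKM steps of 315 genes whose RNA has 400 bases or fewer, using values of up to 6 reads and with 36 bases taken off each length. Between 84.4% and 90.58% of these values came out whole within 0.1 read, and 3 simulated libraries gave errors of up to 2.2%. Reads of the members were approximated from their FPKM, this depth and the median length of their annotated transcripts (GENCODE). Read counts of all genes were not recovered, so no count test was run.

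The members, roles and gene lists were chosen with earlier results of these data known. The members are given by role, except 1 that is not reported here and enters only the counts, with values in every library for the uncoupling proteins, for paralog sets and for called members. Other genes are named where a list they belong to holds them among its calls, and *Cpt1a*, *Acly*, *Me1* and *Cox6a2* were chosen after their values were seen. Motifs were searched in RefSeq promoters. The other steps ran in Python 3.11.15 (numpy 2.4.6, pandas 2.3.3) and figures in matplotlib 3.10.9.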

Additional observations from a re-analysis of the deposited data

How the results depend on the processing

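The fits were repeated with each library left out, without the variance trend, with the replicate block, after quantile or median-of-ratios normalization, with a minimum mean of 5 FPKM or none, and with 0.1 as pseudocount. The median log2 fold change of the tested members stayed between 0.04 and 0.07 in all 11. *Ucp1*, *Slc25a34*, *Slc25a42*, *Slc25a20*, *Slc25a51* and *Slc25a10* were called in all 11, with adjusted p of up to 0.0282, 0.0236, 0.0351, 0.0353, 0.0457 and 0.0276. Members called higher numbered 11, and 7 with no filter, when 19030 genes were tested and 9.26% called. With a minimum mean of 5 FPKM they numbered 10, *Slc25a48* not being tested, and without the variance trend 11, with *Slc25a53* in place of *Slc25a17*. With a library left out they numbered 6 to 11, fewest without Ctrl replicate 1 (6) and Ctrl replicate 2 (7). With the replicate block they numbered 12, *Slc25a33* being added. Same-numbered libraries did not deviate together (r = 0.01 over 12658 genes), so the numbers were not taken as pairs. Members called lower numbered 1, and 2 under quantile normalization, with *Slc25a4* added. The cause was not tested. Over the 11 fits the sign turned for 12 members and for 0 of the called ones, most often without cKO replicate 2 (7 members). Among the paralogs with values in every library these were *Slc25a5* (-0.0411) and *Slc25a40* (0.0287) under quantile normalization and, over the fits with a library left out, *Ucp3* (-0.0703 to 0.0164), *Slc25a12* (-0.2409 to 0.0446), *Slc25a37* (-0.0123 to 0.0934) and *Slc25a40* (-0.2141 to 0.1329). The precision is limited by 2 libraries a group.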
